A study of Mus musculus with 12 samples.

Results

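The baseline transcriptome of 10T1/2 cells on collagen gels was described from all columns of the col1 group, 4 libraries that the sample records mark as control, out of 12 bulk RNA-seq libraries in the series. No other group enters any value given here. The cells, C3H10T1/2 by the series text and CH310T1/2 in the sample records, are 1 established mouse line of wild-type genotype, maintained in 10% fetal bovine serum. By the sample records they were kept in suspension in 0.5% serum for 1 h, while the study's methods describe low serum overnight and then a suspension without serum, and which applies to these libraries is not settled. They were plated on 12 kPa gels carrying 0.05 mg/ml type I collagen, and poly(A) RNA was sequenced after 18 h. Neither recombinant ACLP (aortic carboxypeptidase-like protein, the product of Aebp1) nor an inhibitor was present. The study names the 4 libraries biological replicates of the same line, so the spread between them is that between cultures and not between animals or lines. All cells met collagen on this 1 stiffness.

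10T1/2 cells are fibroblast-like cells grown out of early mouse embryos and are called mesenchymal progenitors because treatment or an introduced regulator can send them towards muscle, fat, cartilage or bone. Cells of this kind make an interstitial matrix of fibrillar collagens, fibronectin and proteoglycans, and hold on to collagen through integrins that pair Itgb1 with Itga1, Itga2, Itga10 or Itga11, and through the discoidin domain receptors Ddr1 and Ddr2. Type I collagen is built from more chains of Col1a1 than of Col1a2.

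Levels are given as TPM, transcript abundances obtained by dividing counts by the gene length of the deposited table and scaling to the same total in each library, as values in replicates 1 to 4 or as the mean ± SD of 4 libraries. A gene was called expressed at 1 TPM or more in all 4 libraries. By that rule 13221 of 56748 genes were expressed, among them 11041 protein-coding genes (50.3% of 21970) and 943 lncRNA genes. Another 6596 protein-coding genes (30.0%) had 0 counts in every library, and the median of all protein-coding genes was 1.81 TPM. Each list below can be read against these shares. The gene length of the table is not the only choice, and with the length of the canonical transcript 86 of 445 genes named here moved by more than 1.5 times. Orders of levels and calls of expression hold for the table's lengths, and for some of the genes that moved the level with the canonical length is given too. Libraries held 32264826 to 42543707 counts. In bulk RNA, fewer cells of a type and less RNA per cell cannot be told apart, and 4 libraries of 1 group allow no exact test to pass 0.05, so neighbours in an order of levels are called apart only where their 4 values do not overlap.

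Replicate 2 stood apart from the other libraries. It detected 18556 genes with at least 1 count against 20931 to 21285 in the others, although its total of 37139568 counts lay between theirs. Among genes with a mean of 20 to 80 counts in the other 3 libraries, 5.31% had 0 counts in replicate 2, and 0.599 to 0.783% had 0 counts in each other replicate. From 80 counts on, no gene was missing from any single library. In all 4 libraries more genes held exactly 2 counts (379 to 1170) than exactly 1 (365 to 731). The cause of the zeros in replicate 2 was not tested. Between any 2 libraries the counts varied well beyond counting error (chi-square divided by its degrees of freedom 9.80 to 18.3), and none was treated as a duplicate.

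The most abundant transcripts were mitochondrial, translational and matrix RNAs. The 10 highest genes held 10.2% ± 0.811 of all TPM, the highest 100 held 27.6% ± 0.640 and the highest 1000 held 58.3% ± 0.325. At the head stood mt-Co1, a cytochrome oxidase subunit, with 32139, 27143, 27991 and 25511 TPM, which was highest in replicate 1. mt-Cytb (13146 ± 1144 TPM) and mt-Nd1 (10816 ± 776 TPM), subunits of complexes III and I of the respiratory chain, followed. The translation elongation factors Eef1a1 (10127 ± 152 TPM) and Eef2 (6560.5 ± 85.9 TPM) and the ribosomal stalk protein Rplp1 (5052 ± 124 TPM) were the highest among genes for translation. Rplp0 (3096 ± 153 TPM), another stalk protein, lay lower.

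Col1a1, the main chain of type I collagen, was the highest nuclear protein-coding gene after Eef1a1 by the table's lengths, with 6980.0, 7080.3, 7023 and 7115 TPM. That rank turned with canonical lengths, by which Fth1 stood at 11127 TPM and Vim at 6977 TPM. With 7049.5 ± 59.9 TPM it had the narrowest spread relative to its mean among the 25 highest genes except Hsp90ab1, a cytosolic chaperone (3519.9, 3463, 3503 and 3511 TPM). Col6a1 (5914 ± 245 TPM), a chain of the microfibrillar type VI collagen, and Fn1 (5823 ± 387 TPM), fibronectin, lay close together and their ranges overlapped. Fn1 ranked 1 and Col1a1 ranked 2 when genes were ordered by counts alone, without division by length. Further matrix and secreted proteins in the first 25 were Sparc (4242 ± 36.9 TPM), a collagen-binding glycoprotein, the heparin-binding growth factor Ptn (4268 ± 151 TPM), Col3a1 (3425 ± 148 TPM) and Timp2 (3238 ± 93.8 TPM), an inhibitor of metalloproteases. The intermediate filament protein Vim (4271 ± 83.6 TPM), the hedgehog co-receptor Gas1 (4356 ± 276 TPM), the ferritin subunit Fth1 (3946 ± 101 TPM), the lectin Lgals1 (3235 ± 102 TPM) and Rps15 (3099.5 ± 306 TPM) completed the cytoplasmic and surface genes of this set.

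**Figure D1:**
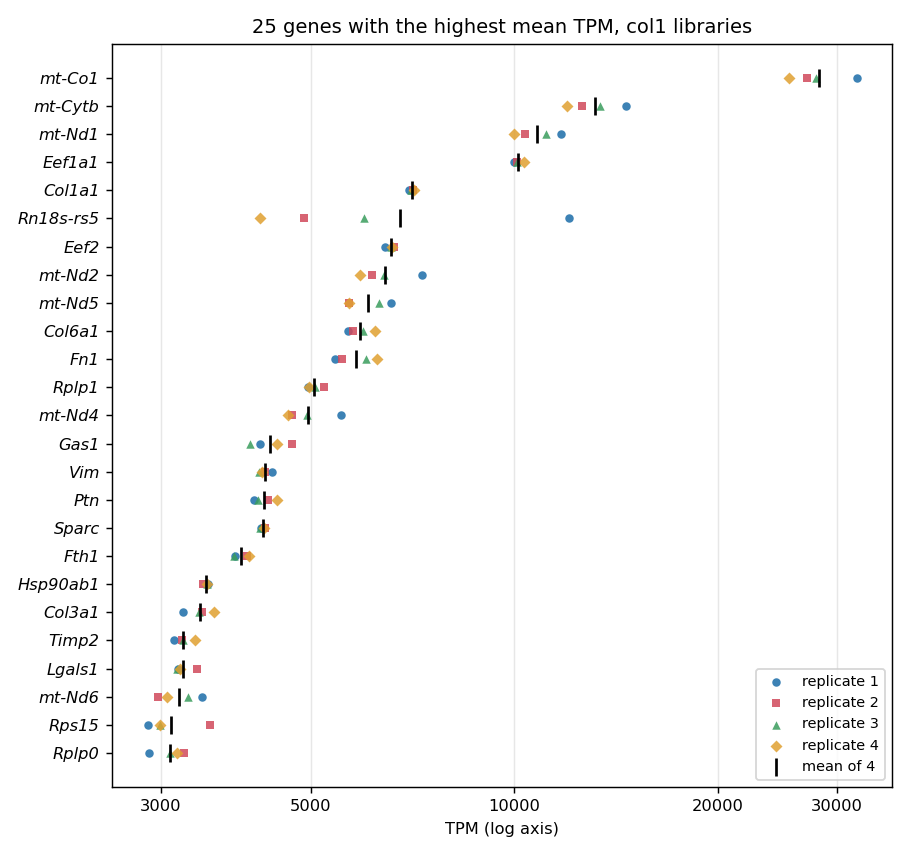
The 25 genes with the highest mean TPM in the col1 libraries, with TPM on a log axis, 1 point per library and a bar at the mean of 4. Col1a1, Sparc and Hsp90ab1 show 4 nearly coinciding points, while Rn18s-rs5 runs from 4199 to 12041 TPM and the mitochondrial genes are highest in replicate 1.

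Rn18s-rs5, a ribosomal RNA sequence, was the least even of the 25, at 12041, 4880.2, 5999.8 and 4199 TPM. Replicate 1 stood far above the others. Ribosomal RNA genes together took 0.586% of the counts in replicate 1 and 0.201 to 0.288% in the others, and Lars2, a mitochondrial leucyl-tRNA synthetase, was likewise high in replicate 1 alone, with 248, 84.7, 102 and 96.4 TPM. The 87 cytosolic ribosomal protein genes found by symbol summed to 58619, 65152, 62699 and 62789 TPM, of which 82 were expressed. Among lncRNAs the highest were Malat1 (916 ± 124 TPM), Xist (339 ± 29.3 TPM), ENSMUSG00000121092 (231 TPM), Norad (200.9 ± 9.89 TPM) and Neat1 (189.9 ± 7.53 TPM). Xist, the RNA of the inactive X chromosome, stood beside 0 counts for all 4 Y-linked genes listed, Ddx3y, Uty, Kdm5d and Eif2s3y.

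All 13 mitochondrially encoded protein genes were expressed, but at levels that fell into separate ranges. The 7 genes of which under 90% was copied elsewhere lay between 3193 and 28196 TPM (median 6441 TPM), and the 6 genes of which 90% or more of all 100-base windows had an identical copy in the nuclear genome lay between 9.49 and 436 TPM (median 142 TPM). mt-Co1 stood at 68.2 ± 15.9 times mt-Co2, its partner in the same oxidase. mt-Co2 stood at 430.5, 348, 629 and 337 TPM and was high in replicate 3. mt-Atp8, the shortest, had 25, 22, 22 and 4 counts. Gapdh, a glycolytic enzyme and a common reference gene, stood at 24.8, 18.2, 18.8 and 14 TPM, or a mean of 41.6 TPM by canonical length, with 84.9% of its windows copied and 81.5% of its exon bases overlapped by Iffo1 on the other strand. The first 100 bases of mt-Co2 (GRCm39, chrM:7013-7112, plus strand) occur once more, on chr1:24654547-24654646 on the minus strand, and a 100-base stretch within 1 exon of Gapdh (GRCm39, chr6:125140288-125140387, minus strand) has 3 further identical copies, of which 1 lies at chr11:26736668-26736767. Both are shown because a read inside them cannot be placed by sequence alone. Each whole stretch is copied, so no base is set in capitals.
mt-Co2: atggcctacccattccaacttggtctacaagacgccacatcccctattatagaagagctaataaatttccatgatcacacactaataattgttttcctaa
Gapdh: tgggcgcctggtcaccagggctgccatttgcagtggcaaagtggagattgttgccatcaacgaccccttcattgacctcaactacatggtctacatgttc
How such reads were counted is not given in the sources used here, and their part in these levels was not tested. Other reference genes with many copies or overlaps were Rps18 (48.4 TPM, or 160.0 TPM by canonical length, 52.6% of windows copied) and Rpl13a (63.5 TPM, or 96.8 TPM, 59.3% of exon bases shared), and Actg1, Ppia and Hspa8, with 82.4%, 53.5% and 62.0% of windows copied, stood at 2502 TPM, 747 TPM (1691 TPM by canonical length) and 901 TPM. Of 1232 genes examined, 76 had 50% or more of their windows copied or exon bases shared, and 924 had under 10% of either. Values of genes in the first set are marked as uncertain below.

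The label of mesenchymal stem cells was set against lists of markers. Of 24 mesenchymal surface and matrix markers, 20 were expressed, with a median of 51.0 TPM, a sum of 24058 to 25328 TPM and 2 at 0 counts. Pdgfrb and Pdgfra, the platelet-derived growth factor receptors of mesenchymal cells, stood at 317, 344, 348 and 363 TPM and at 154, 158, 162 and 177 TPM. Their ranges did not overlap, and both were lowest in replicate 1. Ly6a, the Sca-1 antigen of mouse stromal progenitors, reached 695 ± 34.7 TPM, or 171 TPM with the canonical length. Thy1 (28.6 ± 3.86 TPM), Eng (27.1 ± 0.688 TPM) and Cd44 (46.3 ± 3.35 TPM), surface antigens by which such cells are often defined, were present at lower levels, and Vcam1 (139.9 ± 5.99 TPM) and the pericyte proteoglycan Cspg4 (96.7 ± 1.96 TPM) at higher ones. Other antigens of the same panel were near or at 0. Nt5e, the CD73 ectonucleotidase, had 12, 2, 18 and 8 counts and Cd34 had 16, 39, 9 and 36. Fap and Dpp4, proteases of fibroblast surfaces, had 0 counts in all libraries, which allows up to 0.0135 TPM and 0.0121 TPM when 3 counts over the group are taken as the limit. Such limits cover counting error only. Among values from 2 to about 200 counts, 62.1 to 63.2% in each library were even numbers, and whether read pairs were counted once or by mate is not given in the sources used here. If mates were counted singly, 3 counts would be too low a limit.

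Of 49 mesenchymal transcription factors, 32 were expressed (median 12.1 TPM). Klf4 (344 ± 17.0 TPM), Snai1 (281 ± 15.8 TPM) and Osr1 (277 ± 19.5 TPM) were the highest, followed by Prrx1 (178 ± 6.18 TPM), a homeobox factor of limb and craniofacial mesenchyme, and by Tcf7l2 (110.0 TPM) and Foxc1 (103 TPM). Osr1, a factor of lateral and intermediate mesoderm, stood at 271, 281, 254 and 300.5 TPM. The pair Twist1 and Twist2 was uneven, with 66.1, 68.1, 63.4 and 58.1 TPM for Twist1 and 1.72, 0.544, 1.20 and 1.18 TPM for Twist2, whose exon bases are shared to 52.1% with another gene. Tbx18 (65.0 TPM), Foxf1 (20.4 TPM) and Foxd1 (24.9 TPM) were expressed, whereas Tcf21, Hand1, Hand2, Tbx5, Barx1, Wt1 and Meox2 had 0 counts.

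Smooth muscle genes ranged from abundant actin-binding genes to several near-absent markers of the contractile state. Acta2, smooth muscle α-actin, stood at 879, 817, 907 and 959 TPM, which is 0.433 ± 0.0243 of the level of Actb (2057 ± 61.7 TPM). With canonical lengths Acta2 stood at 529.6 TPM and at 0.244 of Actb. Replicate 4 was highest and replicate 2 lowest. The other defining markers of the list did not follow it. Tagln had 0, 9, 0 and 17 counts (0 to 0.778 TPM), and 60.6% of its exon bases are shared, mostly with Gm48529 on the other strand, so its level is uncertain. Cnn1 stood at 1.18, 1.86, 0.262 and 0.432 TPM, Myh11, the smooth muscle myosin heavy chain, at 0.691, 0.428, 0.502 and 0.587 TPM, and the intermediate filament gene Des at 1.53, 2.71, 1.37 and 0.678 TPM. Myocd, the cofactor of Srf that defines differentiated smooth muscle, had 0 counts in all 4 libraries. That is at most 0.0119 TPM by the limit of 3 counts over the group, with the same reservation as above. The remaining members were mostly abundant, as in Myl6 (816 TPM, 2821 TPM by canonical length, with 50% of windows copied), Cnn2 (612 ± 27.6 TPM) and Csrp1 (449 ± 13 TPM). By the table's lengths Cnn3 (438 ± 12.3 TPM), Cald1 (373 ± 9.12 TPM, 699 TPM by canonical length) and Tpm1 (314 ± 14 TPM, 702 TPM by canonical length) followed. Below them Tpm2 stood at 173 TPM, Smtn at 56.5 to 59.4 TPM and Myl9 at 30.7 TPM (19.5 TPM by canonical length). Mylk stood at 9.21 TPM, Lmod1 at 8.41 TPM and Actg2 at up to 8.30 TPM. In all 15 of 23 were expressed.

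Cartilage genes were represented by their regulator and fibrillar collagens but not by aggrecan. Sox9, the regulator of chondrogenesis, stood at 502, 524, 488 and 494 TPM, 11.2 ± 0.268 times the level of Runx2. Col2a1, the cartilage collagen, stood at 413, 383, 394 and 342 TPM and was lowest in replicate 4. Col11a2 (116 ± 3.05 TPM), Comp (47.7 ± 3.28 TPM) and Col9a3 (38.2 ± 2.34 TPM) were also expressed, as was Sox6 (23.8 ± 1.45 TPM). Acan, the large proteoglycan of cartilage, had 0 counts in all libraries, and Sox5, the partner of Sox6, had 10, 0, 1 and 0 counts. Of 17 chondrogenic genes 10 were expressed.

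Osteogenic genes were mixed, with an early regulator expressed and several markers of bone-forming cells at or near 0. Runx2 stood at 43.8, 47.2, 43.5 and 45.7 TPM. Sp7, which acts after it in bone formation, had 18, 34, 1 and 3 counts, Bglap, osteocalcin, had 20 counts in replicate 4 and none elsewhere, Alpl had 14 counts in replicate 3 and none elsewhere, and Ibsp had none. Spp1, osteopontin, which many stromal cells also make, stood at 542, 672, 677 and 678 TPM and was lower in replicate 1 than in the others, with a mean of 359 TPM by canonical length. Postn reached 137 ± 5.35 TPM, Tnfrsf11b, the decoy receptor osteoprotegerin, 36.6 ± 4.93 TPM, Dmp1, a marker of osteocytes, 13.6 ± 0.537 TPM, Dlx5 11.5 ± 1.95 TPM and Phex, another gene of late bone cells, 2.76 ± 0.304 TPM. In all 9 of 17 osteogenic genes were expressed. Among 8 tendon genes 6 were expressed, with the membrane protein Tnmd at 159, 181, 159 and 140.4 TPM and the regulators Mkx at 13.1 ± 0.819 TPM and Scx at 9.00 ± 1.23 TPM. Egr1 (767 ± 102 TPM) and Fmod (38.4 ± 4.02 TPM) are also on that list and serve in many other tissues, and Thbs4 had 0 counts.

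The adipogenic list held regulators at moderate levels and few products of fat cells. Pparg, the nuclear receptor that drives fat cell formation, stood at 36.1, 36.7, 34 and 35.4 TPM, and Cebpa at 19.7, 22.6, 18.5 and 22.3 TPM. The 4 values of Pparg all lay above those of Cebpa. Cebpb (275 ± 25.8 TPM) and Cebpd (129 ± 8.31 TPM), which precede them in differentiation, were higher, as were the lipid genes Plin2 (190.2 ± 7.40 TPM), Fasn (120.1 ± 6.79 TPM), Scd1 (54.2 TPM) and Dgat2 (54.0 TPM). The fatty acid carrier Fabp4 stood at 1.73, 0.679, 1.94 and 1.66 TPM, with a mean of 3.75 TPM by canonical length, so whether it passes the threshold turns with the length. Plin1, the coat protein of large lipid droplets, had 4 counts in replicate 4 and none elsewhere, and Adipoq, adiponectin, had none. In all 10 of 23 members were expressed and 4 had 0 counts.

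Defining markers of other cell types were mostly at 0 or below 1 TPM, while some other members of their lists were expressed. None of 10 pluripotency markers was expressed, with 0 counts for Pou5f1, Nanog and Zfp42. Of 19 skeletal and cardiac muscle genes 3 were expressed, and Myod1, Myog, Myf5, Ckm and Pax7 had 0 counts. The fusion peptide Mymx was the highest of them at 10.9, 8.90, 2.67 and 10.8 TPM, low in replicate 3. Of 12 endothelial markers, the receptor Tek (5.32 ± 1.21 TPM) and the factor Erg (3.28 ± 0.735 TPM) were expressed, while Cldn5 had 0 counts, Pecam1 had 4, 10, 2 and 3, Cdh5 had 0, 0, 6 and 6 and Vwf had 42, 3, 42 and 53 counts. Of 12 leukocyte markers, the lysosomal protein Cd68 (29.3 ± 1.52 TPM) and Lyz2 (2.85 TPM, but 0.945 TPM by canonical length, under the threshold) were expressed, with Ptprc at 6, 0, 6 and 0 counts, Adgre1 and Cd3e at 0 and Cd79a at 2, 45, 10 and 16 counts. Of 12 epithelial markers, Krt8 (2.34 TPM) and Cdh1 (1.90 ± 0.258 TPM) were expressed, Epcam had 0 counts, Krt5 had 39, 20, 0 and 2 and Esrp1 had 2, 0, 0 and 4 counts. Of 12 neural and glial markers, 5 were expressed, led by S100b (30.3 ± 2.80 TPM), Map2 (16.7 ± 1.22 TPM) and Tubb3 (14.5 ± 2.61 TPM), with Sox10 and Snap25 at 0 counts, Rbfox3 at 5, 0, 0 and 0 counts and Gfap at 1.29, 1.64, 1.44 and 0.712 TPM. The sums of these 6 lists ranged over the 4 libraries from 0 to 0.354 TPM for pluripotency, 10.6 to 20.5 TPM for muscle, 9.77 to 11.6 TPM for endothelial, 32.5 to 38.5 TPM for leukocyte, 4.12 to 5.89 TPM for epithelial and 62.1 to 72.5 TPM for neural and glial genes.

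**Figure D2:**
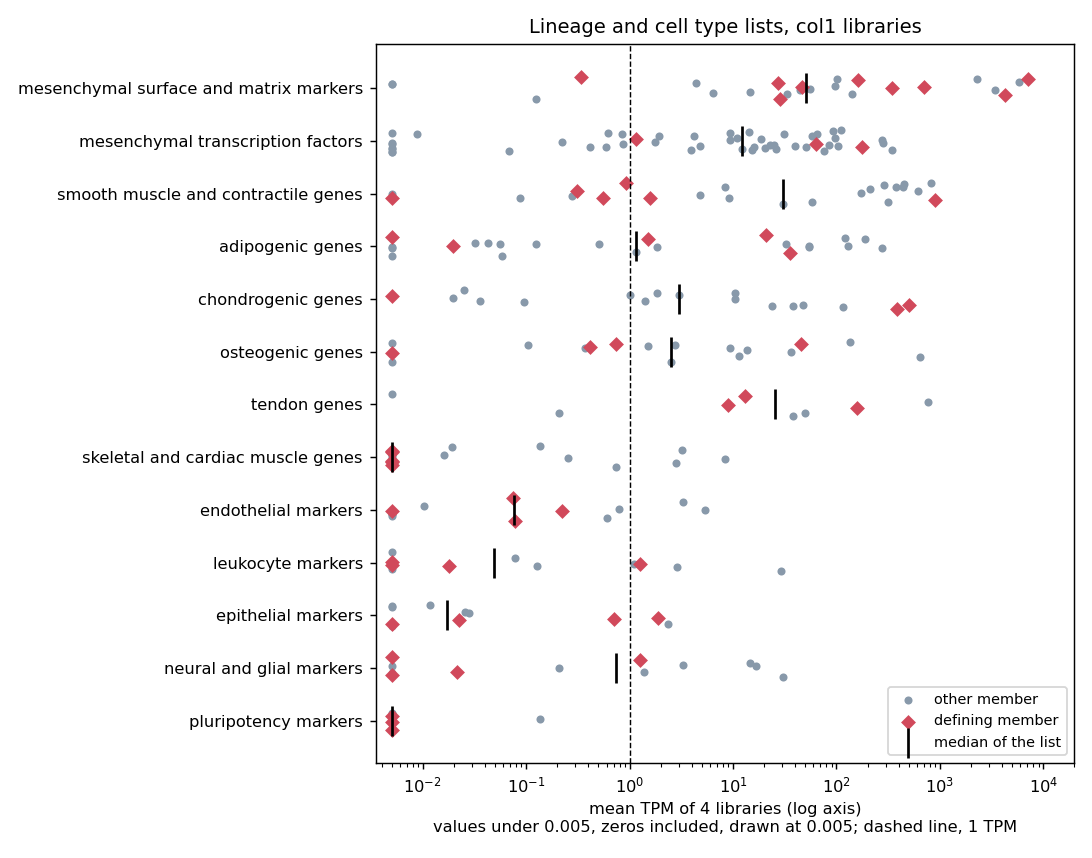
Mean TPM over 4 libraries, on a log axis, of each member of 13 lineage and cell type lists, with the defining members as diamonds and a bar at each list's median. Mesenchymal lists have medians of 51.0 TPM and 12.1 TPM, the pluripotency and muscle lists have medians of 0, and Acta2 stands alone among the defining smooth muscle genes, at 890.3 TPM.

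Hox genes, which record the position along the body axis from which mesenchyme came, were expressed from a single cluster. Of 38 Hox genes examined, 7 were expressed, all of them in the HoxA cluster on chromosome 6, and 22 had 0 counts. Hoxa7, the highest, stood at 50.1, 45.8, 38.8 and 44.6 TPM (chr6:52191471-52198834 in the table's positions, minus strand). Hoxa2 (31.7, 32.4, 32.3 and 37.7 TPM) was the next, and its highest library lay below the lowest of Hoxa7. With canonical lengths Hoxa2 stood at 17.5 TPM and Hoxa3 at 40.5 TPM, so the order below Hoxa7 depends on that choice. Hoxa5 (29.2 ± 5.60 TPM), Hoxa3 (23.1 ± 2.11 TPM) and Hoxa6 (17.3 ± 6.98 TPM) followed, each with values that overlap those of its neighbour in the order. Hoxa6 was uneven, with 15.5, 15.1, 27.3 and 11.1 TPM, replicate 3 being the highest. Hoxa10 (8.99 ± 1.15 TPM) and Hoxa4 (8.38 ± 0.867 TPM) overlapped each other. Hoxa9 lay between Hoxa7 and Hoxa10 on the chromosome and at 1.32, 0.710, 1.00 and 0.815 TPM in level, and Hoxa7 exceeded it 49 ± 12.9 times. Hoxa11 and Hoxa13 had 0 counts. The highest Hox gene outside the cluster was Hoxc13, with 2, 0, 12 and 26 counts. All HoxD genes had 0 counts. Antisense genes overlap several members, with 29.5% of exon bases shared in Hoxa3, 28.8% in Hoxa7 and 43.6% in Hoxa11.

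**Figure D3:**
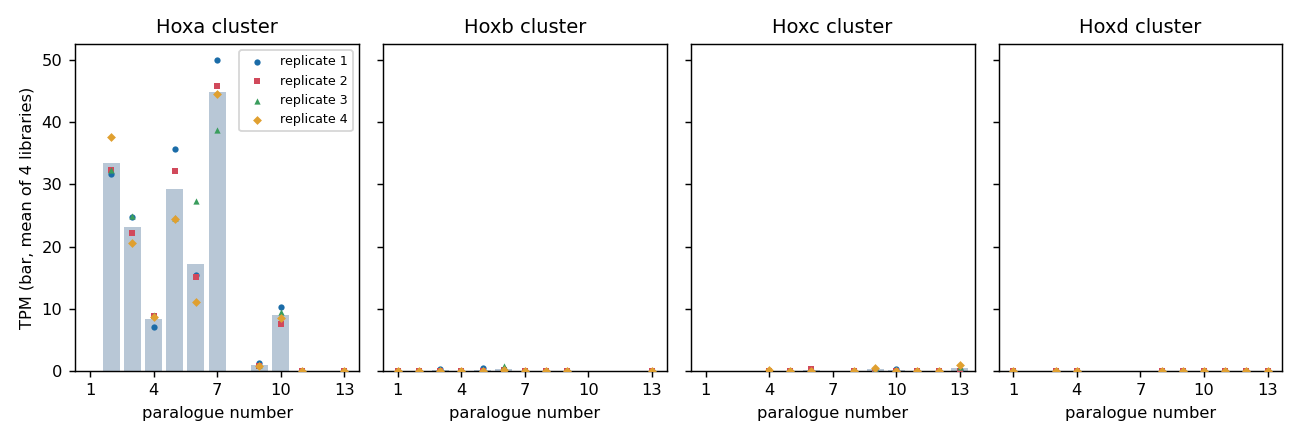
TPM of the Hox genes examined, by cluster and paralogue number in the col1 libraries, with a bar at the mean of 4 libraries and 1 point per library. Bars above 1 TPM appear only in the HoxA panel, from Hoxa2 to Hoxa7 and at Hoxa10, with Hoxa7 highest at 44.8 TPM.

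The matrix repertoire took 7.07% of all TPM. Of 223 genes on the matrix lists, 164 were expressed, and their sum was 68622, 70402, 70947 and 72655 TPM. The share rose to 11.6% when counts were not divided by length. Collagen chains alone summed to 25383, 25999, 26219 and 26808 TPM, 2.61% of all TPM, with 28 of 44 expressed. Ordered by level, Col1a1 was followed by Col6a1, Col3a1, Col1a2 (2251, 2308, 2276 and 2307 TPM) and Col6a2 (1970.5 ± 57.1 TPM), then by the basement membrane chains Col4a1 (1178 ± 39.7 TPM) and Col4a2 (812 ± 26.6 TPM). Neighbours in the collagen order did not overlap in 19 of 27 pairs.

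Ratios between chains that assemble together were narrow for the abundant chains and wide for a scarce pair. Col1a1 stood at 3.08 ± 0.0134 times Col1a2, Col4a1 at 1.45 ± 0.00306 times Col4a2, and Col6a1 at 3.00 ± 0.0704 times Col6a2, while Col8a2 stood at 2.19 ± 0.672 times Col8a1. These ratios depend on the length by which counts are divided. With the length of the canonical transcript in place of the table's gene length they were 1.47, 1.67, 2.30 and 1.47. Among the minor fibrillar chains, Col5a2 (634 ± 15.9 TPM), Col5a3 (472 ± 9.03 TPM) and Col5a1 (465 ± 12.8 TPM), which set the diameter of type I fibrils, exceeded Col11a1 (299 ± 9.97 TPM). Col12a1 (110.2 ± 6.76 TPM), which decorates fibrils, was expressed, whereas its relative Col14a1 had 2, 0, 10 and 0 counts. Col6a3 (458 ± 27.5 TPM) was the lowest of the 3 main type VI chains, and Col18a1 stood at 79.9, 96.4, 91.7 and 107 TPM. At the low end were Col10a1 (2.42, 3.9, 2.02 and 3.57 TPM) and Col9a2 (1.70, 3.12, 1.43 and 1.21 TPM), of which Col9a2 was high in replicate 2 and Col10a1 in replicates 2 and 4.

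The basement membrane list had 10 of 15 members expressed. Nid2 led at 1838, 1875, 1947 and 1963 TPM, 30.4 ± 1.78 times its relative Nid1 (62.8 ± 3.48 TPM), both being linkers of laminin and type IV collagen. Hspg2, perlecan, stood at 589 ± 28.3 TPM. The laminin chains were Lamb2 (519 ± 13.7 TPM), Lamc1 (208 ± 11.5 TPM) and Lama4 (166 ± 7.95 TPM, or 250.5 TPM by canonical length), then Lamb3 (96.6 TPM), Lamb1 (84.5 TPM) and Lama5 (18.3 TPM), while Lama1 had 10, 0, 8 and 0 counts and Lama3 had 30, 0, 10 and 13. None of the 9 neighbouring pairs in this list overlapped.

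Of 58 matrix glycoproteins, 46 were expressed, summing to 18304 to 19928 TPM. Below Fn1 and Sparc came Fbln2 (1109.6 ± 74.2 TPM), Ccn1 (948 ± 67.0 TPM), a matricellular protein induced by tension and serum, Pcolce (896 ± 17.3 TPM), an enhancer of procollagen cleavage, and Thbs1 (654 ± 25.1 TPM). Aebp1, the gene of ACLP itself, was expressed without any added protein, at 537, 539, 548 and 558 TPM. Ccn2, the relative of Ccn1, stood at 60.0, 66.3, 58.3 and 74.8 TPM, below Ccn1 in every library. Ccn5 was the steadiest of the group at 564, 565, 561 and 559 TPM. Fibrillin Fbn1 (294 ± 14.2 TPM) and the elastic fibre protein Fbln5 (359 ± 5.38 TPM) were expressed, but elastin itself, Eln, reached only 2.03, 2.97, 2.71 and 3.52 TPM. Cthrc1, Thbs4 and Igfbp2 had 0 counts.

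Proteoglycans were led by the small leucine-rich members Bgn (2139 ± 70.0 TPM, 4069 TPM by canonical length), Ogn (1229 ± 25.3 TPM, 460.2 TPM by canonical length), Prelp (705 ± 18.2 TPM) and Aspn (684 ± 15.9 TPM), whereas Dcn and Lum, members of the same family, stood at 45.6, 58.4, 57.2 and 61.2 TPM and 27.9, 35.0, 35.4 and 33.6 TPM, both lowest in replicate 1. Gpc1 (342 TPM, or 166 TPM by canonical length) and Sdc2 (318 TPM) were the highest cell surface proteoglycans by the table's lengths, and Vcan reached 104 ± 6.27 TPM. The hyaluronan synthase Has2 stood at 24.9, 21.6, 24.0 and 32.3 TPM, highest in replicate 4. In all 23 of 32 members were expressed.

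The machinery for collagen was nearly complete, with 27 of 30 enzymes and chaperones expressed. Serpinh1, the collagen chaperone HSP47, stood at 2194, 2236, 2151 and 2264 TPM and P4hb, a subunit of prolyl hydroxylase, at 1579.8, 1514, 1549.6 and 1609 TPM. Among the catalytic subunits P4ha1 (202 ± 10.2 TPM) lay above P4ha3 (41.5 ± 2.29 TPM) and P4ha2 (27.0 ± 1.40 TPM, or 55.9 TPM by canonical length). Lox, lysyl oxidase, which crosslinks collagen, led its family at 575, 582, 581 and 551 TPM, 2.36 ± 0.134 times Loxl1. Loxl4 (67.3 TPM) and Loxl3 (54.7 TPM) were lower, and Loxl2 had 15, 81, 33 and 58 counts. Of the N-propeptidases, Adamts2 (43.2 TPM) and Adamts14 (27.8 TPM) were expressed and Adamts3 had 0 counts, and the C-propeptidase Bmp1 stood at 274 ± 11.1 TPM. Fkbp10 (471 ± 4.72 TPM) and P3h4 (428 ± 26.8 TPM) completed the first 6 with Pcolce by the table's lengths. With canonical lengths Bmp1 (482 TPM) lay above P3h4 (245 TPM), and Pcolce (1592 TPM) above Serpinh1 (1452 TPM). The value of Ppib (74.5 TPM), which shares 59.6% of its exon bases, is uncertain.

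Of 45 proteases and inhibitors 31 were expressed. Timp2 exceeded Mmp2, the gelatinase it binds, 3.26 ± 0.0914 times, with Mmp2 at 936, 1026, 996 and 1021 TPM, and Mmp14, the membrane protease that activates Mmp2, stood at 463, 480.0, 479.8 and 503 TPM. Serpinf1 (485 ± 24.7 TPM), Ctsb (376 ± 11.2 TPM), Timp1 (295 ± 39.7 TPM) and Adamts1 (279.9 ± 5.68 TPM) followed. The collagenase Mmp13 had 0, 10, 27 and 19 counts and Mmp3 had 0, 0, 2 and 22, and Mmp8, Mmp10 and Mmp12 had none.

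Itgb1 was the highest of the integrin subunits, which are receptors for this matrix. Of 27 integrin subunits 15 were expressed, summing to 1629.6 to 1764 TPM. Itgb1, the common β subunit of collagen, laminin and fibronectin receptors, stood at 869, 872, 918 and 938 TPM, 2.54 ± 0.0524 times Itgb5 (354 ± 20.7 TPM), and at 553 TPM with the canonical length. Itga5, which pairs with Itgb1 to bind fibronectin, stood at 212, 207, 226 and 226 TPM and Itgav, which pairs with several β subunits, at 80, 83.9, 85.3 and 89.8 TPM. These 4 subunits and Itgb3 (34.9 ± 2.44 TPM) followed one another with no overlap, and Itgb1 was lowest in replicates 1 and 2.

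The α subunits that bind collagen were low or near absent. Itga1 stood at 6.45, 6.16, 7.10 and 6.72 TPM, so that Itga5 exceeded it 33.0 ± 0.847 times, or 22.3 times with canonical lengths. Itga10 stood at 7.08, 4.11, 5.84 and 5.17 TPM, overlapping Itga1, with 34.5% of its exon bases shared. Itga11, the fibrillar collagen receptor of fibroblasts, had 20, 52, 40 and 18 counts, or 0.393, 1.03, 0.930 and 0.319 TPM, and thus fell on either side of 1 TPM, lower in replicates 1 and 4. Itga2 had 0, 5, 0 and 10 counts. Against these levels the other collagen receptors were high. Ddr2 stood at 299, 271, 306 and 303 TPM, 44.6 ± 1.46 times Itga1 (28.8 with canonical lengths), and Ddr1 at 185, 183, 196 and 185 TPM, and the ranges of Ddr2 and Ddr1 did not overlap. Mrc2, which takes up collagen fragments, stood at 263 ± 6.03 TPM. The platelet and leukocyte collagen receptors Gp6 and Lair1 had 0 counts.

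Other subunits included Itgb4 (26.7 ± 1.76 TPM) and Itga6 (24.2 ± 1.91 TPM), which together form a laminin receptor and whose ranges overlapped, and the sign of their difference turned with canonical transcript lengths (Itga6 over Itgb4 0.907 ± 0.0806 by table length, 1.67 by canonical length). Itga2b (9.43 ± 0.968 TPM), Itgb8 (5.58 ± 0.939 TPM), Itga7 (4.88 ± 0.343 TPM), Itga3 (3.57 ± 0.402 TPM), Itgb2 (3.15 ± 0.523 TPM) and Itgb7 (2.53 ± 0.935 TPM) were expressed at low levels. Itga8 and Itga4 fell on either side of 1 TPM, and Itgam, with 92.1% of its exon bases shared, had 0 counts. Of 23 other matrix receptors 17 were expressed, led by Rpsa (1249 TPM), which is also a ribosomal protein, the endocytic receptor Lrp1 (1081 ± 48.4 TPM) and dystroglycan, Dag1 (403 ± 9.44 TPM).

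**Figure D4:**
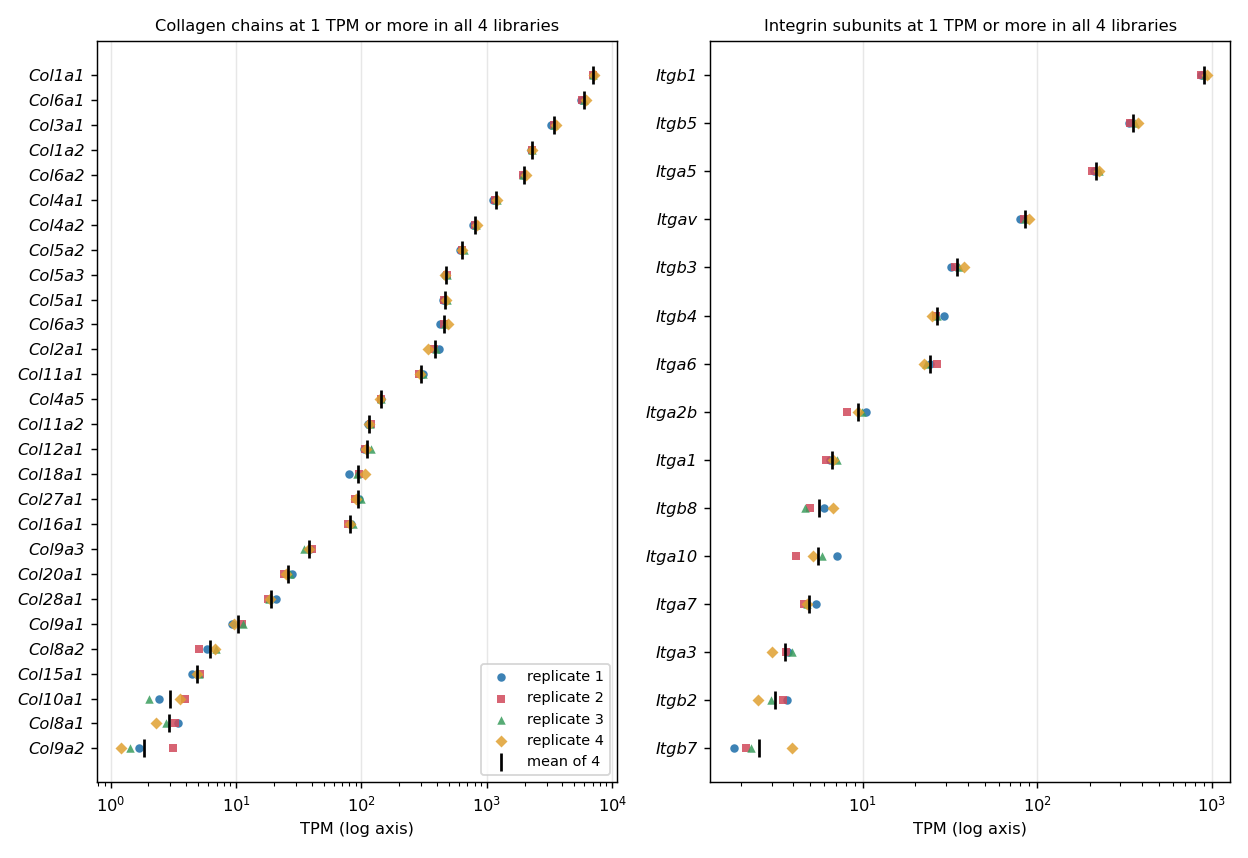
Expressed collagen chains (left) and integrin subunits (right) in the col1 libraries, in order of mean TPM on log axes, with 1 point per library and a bar at the mean of 4. Collagens run from Col1a1 at 7050 TPM to Col9a2 at 1.86 TPM and integrins from Itgb1 at 899 TPM to Itgb7 at 2.53 TPM, and points spread apart only in the lower rows.

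Receptors and ligands of the TGFβ pathway, in which ligands bind Tgfbr2 and then engage the kinase Tgfbr1 (ALK5), were present. Tgfbr2 stood at 262, 257, 258 and 287 TPM and Tgfbr1 at 26.5, 25.6, 27.9 and 27.1 TPM, a ratio of 9.94 ± 0.554, and 8.58 with canonical lengths. The co-receptor Tgfbr3 stood at 28.7 ± 2.54 TPM. Among the ligands Tgfb3 (65.4, 69.3, 63.7 and 68.4 TPM) and Tgfb2 (51.8, 49, 53.8 and 57.9 TPM) lay above Tgfb1 (16.2, 17.9, 17.4 and 18.3 TPM) in every library. The distance of Tgfb3 from Tgfb1 shrank from 3.83 ± 0.173 to 1.37 times with canonical lengths (1.31 to 1.45 over the libraries). That of Tgfb2 shrank from 3.05 ± 0.209 to 1.48 times (1.33 to 1.56). These ranges overlap, so the order of Tgfb2 and Tgfb3 is not fixed by these data. Of the latent binding proteins Ltbp3 (252 ± 6.34 TPM) and Ltbp2 (232 ± 15.1 TPM) exceeded Ltbp1 (30.4 ± 2.39 TPM). The signal transducers Smad3 (143 ± 10.1 TPM) and Smad4 (121 ± 7.09 TPM) exceeded Smad2 (33.4 ± 2.30 TPM), but with canonical lengths Smad2 rose to 134 TPM and Smad4 fell to 55.0 TPM. The inhibitor Smad7 stood at 7.95 ± 1.25 TPM. Of 16 target genes of the pathway 15 were expressed, led by Junb, Itgb5, Id1 (286 ± 29 TPM), Id3 (258 ± 29.2 TPM), Ltbp2 and Tgif1 (77.7 TPM).

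Of 61 growth factor receptors 42 were expressed. The highest were Igf2r (461 ± 26.6 TPM), Axl (411 ± 15.4 TPM), Pdgfrb, Tgfbr2, Fgfr1 (253 ± 5.97 TPM) and Tnfrsf1a (215 TPM). Of 99 ligands 55 were expressed. After Ptn came Fstl1 (1581 ± 36.0 TPM), the chemokines Cxcl1 (519.5, 617, 533 and 574 TPM) and Cxcl5 (454 ± 14.5 TPM), Fgf7 (329 ± 10.1 TPM) and Ccl2 (326 ± 18.3 TPM).

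Several ligands were abundant where their main receptor was absent or nearly so in the same RNA. Cxcl12 stood at 186, 193, 198 and 194 TPM, while its receptor Cxcr4 had 4, 0, 1 and 4 counts and its scavenger receptor Ackr3 stood at 25.1 ± 3.96 TPM. Csf1 stood at 203, 185, 209 and 202 TPM and its receptor Csf1r had 20 counts in replicate 4 and none elsewhere. Kitl, stem cell factor, stood at 95.3, 89.7, 93.4 and 103 TPM. Its receptor Kit had 0 counts, at most 0.00860 TPM by the limit of 3 counts over the group. Angpt1 (124 ± 10.8 TPM) was paired with a low level of its receptor Tek (5.32 TPM). The reverse was seen for the insulin-like growth factor Igf1. Igf1r stood at 112, 99.5, 113 and 113 TPM, while Igf1 had 10, 22, 3 and 25 counts. Igf2 had 0 counts, but 97.1% of its exon bases are shared with Gm49394, so no level can be read for it. Receptor and ligand were both expressed for Axl and Gas6 (12.2 TPM), Pdgfrb and Pdgfb (25.8 ± 2.85 TPM), and Pdgfra and Pdgfa (72.1 ± 4.74 TPM). The same held for Lgr4 (111 ± 2.06 TPM) with Rspo2 (251 ± 4.08 TPM, 94.0 TPM by canonical length) and Rspo3 (108 ± 7.91 TPM, 59.6 TPM by canonical length). It also held for Notch2 (75.3 ± 5.12 TPM) with Jag1 (146 ± 5.59 TPM). Bmp4 stood at 152 ± 5.56 TPM and Bmp2 had 0 counts.

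Of 25 Wnt, Notch and hedgehog receptors 19 were expressed. Hedgehog co-receptors were among the highest, with Gas1 at 4209, 4691, 4067 and 4459 TPM, Boc (232 ± 4.32 TPM) and Cdon (154 ± 9.89 TPM), together with the transducer Smo (193 ± 5.00 TPM). The receptor Ptch1, also a target of the pathway, stood at 13.7, 11.3, 11.9 and 12.2 TPM, the target Gli1 at 2.22, 2.24, 1.5 and 1.71 TPM, and Gli3, mostly a repressor, at 31.2 ± 0.904 TPM. Shh had 0 counts and Ihh had 36, 23, 3 and 2. Fzd2 (368 ± 6.63 TPM) and Fzd8 (144 TPM) led the Wnt receptors. Of 40 G protein-coupled receptors 17 were expressed, with Adgra2 (178 ± 4.84 TPM), the lysophosphatidic acid receptors Lpar1 (154 ± 7.52 TPM) and Lpar4 (113 ± 3.70 TPM), the thrombin receptor F2r (65.7 ± 3.33 TPM) and the sphingosine phosphate receptors S1pr1 (54.4 ± 6.83 TPM) and S1pr2 (44.3 TPM) in front. The angiotensin receptor Agtr1a had 0 counts and the endothelin receptor Ednra had 58, 34, 11 and 108.

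Genes of adhesion complexes and the actin cytoskeleton were expressed in 63 of 71 cases, with a median of 136 TPM. Actg1 (2502 ± 84.8 TPM, uncertain for its copies), Actb, the annexin partner S100a11 (1982 TPM, 329 TPM by canonical length) and the thymosin Tmsb4x (1277 ± 27.1 TPM) headed the list after Lgals1, with Cavin2 (1224 ± 43.1 TPM, 424 TPM by canonical length) and Cavin1 (1114 ± 39.3 TPM), coat proteins of caveolae. The caveolin Cav1, their partner in the same structure, stood at only 30.5, 25.8, 32.1 and 33.9 TPM, 0.0275 ± 0.00317 of Cavin1. The links from integrin to actin were Flna (753 ± 42.1 TPM), Zyx (608 ± 6.71 TPM), Myh9 (521 ± 24.0 TPM), Tln1 (321 ± 10.8 TPM), Vcl (132, 141, 153 and 163 TPM) and Fermt2 (136 ± 8.18 TPM). The kinases Src (65.7 ± 2.58 TPM) and Ptk2 (32.3 ± 1.37 TPM, 60.9 TPM by canonical length), focal adhesion kinase, were lower. Ilk, integrin-linked kinase, had 14, 8, 9 and 5 counts, while its partners Lims1 (150.3 ± 10.7 TPM) and Parva (127 ± 3.47 TPM) were well expressed. All of the exon bases of Ilk are overlapped by other genes, Taf10 on the other strand (24.3 TPM) above all, so no level can be read for it. Rhob (654 ± 35.7 TPM) exceeded Rhoc (368 TPM) and Rhoa (145 ± 2.63 TPM), but Rhoa stood at 373 TPM by canonical length, so that its place after Rhoc is not fixed by these data.

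Of 28 mechanosensitive regulators 27 were expressed. The MRTF and SRF system, in which actin polymerization releases Mrtfa to act with Srf, was represented by Mrtfa (37.3, 38.8, 43.5 and 41.0 TPM), Mrtfb (25.8, 27.0, 28.9 and 27.1 TPM) and Srf (113, 107, 111 and 113 TPM, or 58.8 TPM by canonical length). Values of Mrtfa and Mrtfb did not overlap. Wwtr1 (TAZ) stood at 103, 109, 107 and 113 TPM and Yap1 at 57.8, 57.4, 63.4 and 56.9 TPM, but with canonical lengths Yap1 exceeded Wwtr1 1.19 times, so their order is not fixed by these data. Lmna (338 ± 8.66 TPM), Amotl2 (293 ± 6.96 TPM), Vgll3 (164 ± 8.25 TPM) and the channels Piezo1 (165 ± 6.79 TPM) and Trpv4 (96.3 ± 3.47 TPM) were well expressed, and Piezo2 had 25, 49, 18 and 20 counts. Of 18 YAP and TEAD targets 16 were expressed, led by Ccn1, Axl, the tissue factor F3 (326, 346, 323 and 407 TPM, highest in replicate 4), Amotl2, Asap1 (209.6 TPM) and Gadd45b (139.8 TPM), while Ankrd1, a common reporter of the pathway, had 13, 33, 15 and 6 counts.

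Of 18 MRTF and SRF targets 16 were expressed, all but Cnn1 and Tagln. The sum over the list was 4195, 4011, 4331 and 4379 TPM, lowest in replicate 2. SRF binds the CArG box, searched here on both strands in RefSeq promoter windows of 300 bases, from 250 before to 50 after the start, on GRCm38.p6. Only the strict pattern was searched, CC, then 6 letters that are each A or T, then GG. The box occurred in 6 of 15 targets with a window, and in 1.53% of the windows of 16770 protein-coding genes. Targets are shown in order of level with 1 box in capitals and 20 bases on each side, 5′ to 3′ along the gene, since this box is the motif that SRF recognises. They lie at chr10:79988524-79988573 (plus strand) for Cnn2, chr14:20929151-20929200 (plus) for Vcl, chr17:46556195-46556244 (minus) for Srf, chr1:43163963-43164012 (minus) for Fhl2, chrX:56779561-56779610 (plus) for Fhl1 and chr2:156775283-156775332 (plus) for Myl9.
Cnn2: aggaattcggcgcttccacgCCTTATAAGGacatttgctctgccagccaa
Vcl: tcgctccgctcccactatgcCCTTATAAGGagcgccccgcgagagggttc
Srf: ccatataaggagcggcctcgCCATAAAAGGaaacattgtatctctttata
Fhl2: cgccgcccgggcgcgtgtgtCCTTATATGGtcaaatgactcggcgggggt
Fhl1: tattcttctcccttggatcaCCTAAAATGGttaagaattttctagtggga
Myl9: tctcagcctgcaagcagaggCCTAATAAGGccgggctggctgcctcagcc
The stretch of Srf also holds a second box, left in lower case at its 5′ end. Genes with a box ranged from 30.7 TPM for Myl9 to 612 TPM for Cnn2, with Fhl2 at 70.0 ± 5.09 TPM and Fhl1 at 58.4 ± 0.934 TPM. Acta2 was the highest target by the table's lengths but below others such as Tpm1 (702 TPM) and Cald1 (699 TPM) by canonical lengths. It had no match to the strict pattern within its window, nor had Flna, Zyx, Cald1 or Tpm1. Cnn1, at the lower end, had none either. A match is a description of the letters only. A box outside the window, or one that departs from the strict pattern, was not looked for, so a gene without a match may still hold a site.

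Promoter letters differed between classes of expression among the 16770 of 21970 protein-coding genes that matched a window by symbol. The median number of CG pairs was 3 in genes with 0 counts, 7 below 1 TPM, 17 from 1 to 10 TPM, 22 from 10 to 100 TPM, 23 from 100 to 1000 TPM and 16.5 in the 56 genes at 1000 TPM or more. The letters TATAAA, on either strand, occurred in 25% of windows of genes with 0 counts, in 5.60% at 10 to 100 TPM and in 23.2% (13 of 56) at 1000 TPM or more, with 13.1% over all windows. GGGCGG, a GC box, occurred in 18.0% of windows at 0 counts and 69.9% at 100 to 1000 TPM. In numbers of genes, 82 protein-coding genes at 1000 TPM or more held 24.6% of all TPM, and 1631 at 100 to 1000 TPM held 38.8%.

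Cell cycle genes were expressed in 39 of 40 cases at a median of 10.1 TPM, and summed to 546, 540.4, 517 and 498 TPM. Mki67, a marker of dividing cells, stood at 12.5, 11.8, 13.6 and 12.3 TPM, Top2a at 17.3 ± 1.67 TPM and Cdk1 at 17.8 ± 2.24 TPM. Among regulators, Cdkn1a (p21), an inhibitor of cyclin-dependent kinases, was the highest at 480.3, 524, 484 and 493 TPM, 39.7 ± 3.79 times Mki67 and 74.8 times with canonical lengths. Cdk4 (358 ± 8.29 TPM), Ccnd1 (169 TPM, with 61.0% of exon bases shared), Trp53 (149.7 ± 5.62 TPM) and Myc (123 ± 8.47 TPM) were expressed. Cdkn2a had 16, 0, 0 and 10 counts and Cdkn2b had 11, 39, 1 and 28, beside 249 ± 6.31 TPM for Mtap, their neighbour on the chromosome. In all 19 of 23 regulators were expressed.

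Immediate early genes, which answer serum and stress within minutes, were all expressed but uneven between libraries. The 20 genes summed to 5976, 7671, 5779.7 and 7291 TPM, highest in replicates 2 and 4. Ier2 stood at 956, 1359, 852 and 1262 TPM, Junb at 704, 997, 685 and 887 TPM and Fos at 491, 629, 475 and 599.8 TPM. Jun (374, 479.8, 384 and 502 TPM), Nr4a1 (538, 661, 549.9 and 656 TPM) and Btg2 (121, 184, 119 and 169 TPM) were likewise highest in replicates 2 and 4. The gap was wide for Atf3, at 7.69, 13.2, 6.92 and 12.9 TPM, and for Ptgs2 on the inflammatory list, at 37.8, 60.4, 32.6 and 56.0 TPM. The sample records give no handling order or batch that would tell these libraries apart, and the cause was not tested.

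Chaperones and genes of the unfolded protein response were expressed in 21 of 22 cases. After Hsp90ab1 came Calr (1829 ± 38.0 TPM), Hspa8, Pdia3 (875 ± 34 TPM), Hsp90aa1 (738 ± 39.9 TPM) and Hspa5 (564 ± 17.3 TPM). The heat-induced Hspa1b stood at 65.8, 55.6, 62.2 and 70.8 TPM, Hspa1a at 4.15, 5.27, 3.54 and 4.38 TPM and Hspb1 had 20, 28, 26 and 4 counts, all 3 with copied windows (24.8%, 22.6% and 60.6%). Of 26 glycolysis and hypoxia genes 23 were expressed, with Aldoa (673 TPM, 86.1% of exon bases shared), Pkm (642 ± 21 TPM) and Ldha (339.7 ± 15.0 TPM) among the first. Pgk1 (384 TPM), Pgam1 (331 TPM) and Eno1 (318 TPM) stood near Ldha, with 88.6%, 88.2% and 51.1% of windows copied. Car9, a hypoxia target, stood at 27.4 ± 2.33 TPM.

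Spread between replicates was small for abundant genes and wider at low counts. In edgeR with an intercept alone, 14049 genes passed the filter and had a common biological coefficient of variation of 0.138. It was 0.113 without replicate 2 and 0.147 to 0.152 without any other replicate. Log2 CPM (counts scaled to the library total) correlated across genes with a median Pearson r of 0.986 between pairs of libraries, with 0.983 to 0.984 in the 3 pairs that hold replicate 2 and 0.989 in the others. Genes are not independent replicates. The first principal component held 46.8% of the variance, and it placed replicate 2 at -36.7 and the others at 9.96 to 14. The median SD of log2 CPM was 0.92 in the 9430 genes with a mean under 10 counts, 1.00 in genes with a mean of 10 to 20 counts, 0.67 from 20, 0.45 from 50, 0.20 from 100, 0.08 from 1000 and 0.05 from 10000 counts on.

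**Figure D5:**
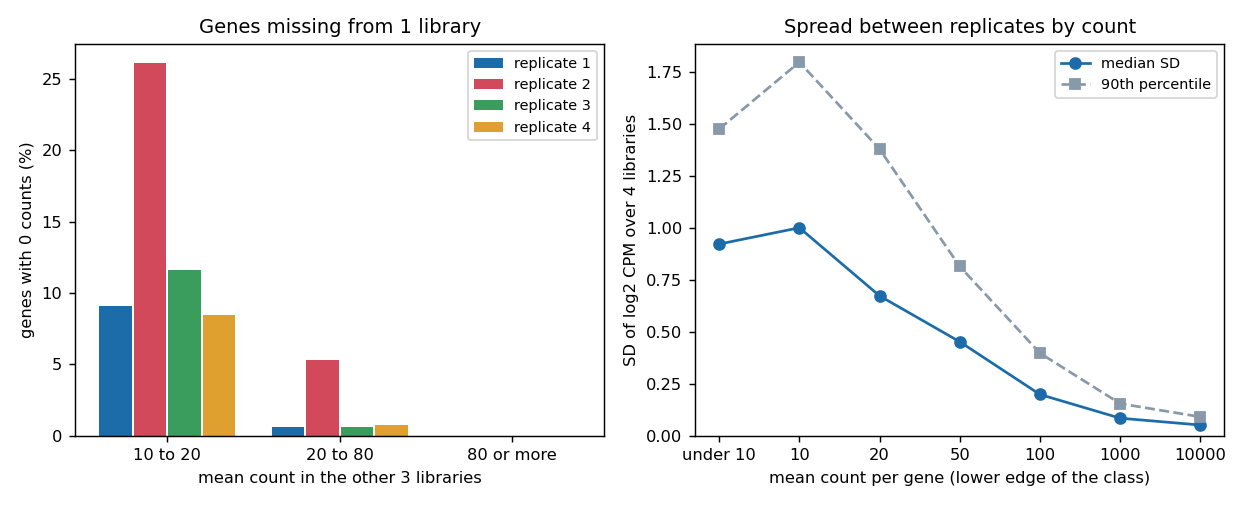
Left, share of genes with 0 counts in 1 library, by their mean count in the other 3, for each replicate. Right, median and 90th percentile of the SD of log2 CPM over 4 libraries by the mean count of the gene. Replicate 2 lacks 26.1% of genes at 10 to 20 counts and 5.31% at 20 to 80, and the median SD falls from 1.00 to 0.05.

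Among 9535 genes with a mean of at least 10 TPM, the median SD of log2 CPM was 0.10 and 50 genes exceeded 1. Replicate 2 was the library farthest from the median of the 4 values in 3411 of them (35.8%). Replicates 1, 3 and 4 were farthest in 2027, 2007 and 2090. The steadiest were Supt16 (60.7, 60.5, 61.8 and 62.2 TPM), a histone chaperone, Hnrnpk (215, 212, 218 and 219 TPM), an RNA-binding protein, and Vdac1 (280.5, 275, 283 and 282 TPM), a mitochondrial channel, then Ppme1, Ezh1, Zfp866, Sars, Ubap1, Smarcb1 and Mecom. None of the 20 with the widest spread codes for a protein. They were 6 snoRNA, 5 miRNA, 5 processed pseudogene, 2 snRNA, 1 scaRNA and 1 lncRNA genes with few counts and short lengths, such as Gm15899 (44, 0, 32 and 24 counts), Mir23b (15, 0, 18 and 22 counts) and Mir1943 (11, 0, 1 and 19 counts). Of protein-coding genes with at least 200 counts and 10 TPM on average, a rule added after these were seen, the widest was Sumo2, a small ubiquitin-like modifier, at 144, 31.2, 65.8 and 191 TPM, with 92.3% of its windows copied elsewhere. Replicate 2 was lowest and replicate 4 highest. Rps27rt (342, 897, 509 and 1000.1 TPM, 63.6% copied), Rpl7a (417, 292, 252 and 706 TPM, 84.8% copied) and Rps27 (357, 258, 431 and 212 TPM, 58.8% copied), proteins of the ribosome, were also among the widest, as was Hacd1 (17.3, 7.39, 19 and 27.8 TPM, 15.1% copied), an enzyme of fatty acid elongation. The part of copies in this spread was not tested.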

How the data were processed

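Poly(A)-enriched paired-end RNA-seq of 10T1/2 cells was deposited by the authors as a table of raw counts per gene for 12 libraries, with gene lengths, after alignment with HISAT2. Per the labels the build was mm10, whereas the study's methods name GRCm39, and the positions of the table matched GENCODE vM39 on GRCm39 for 33753 of 56017 shared identifiers. The counting tool, its strand setting and the definition of gene length are not given in the sources used here. Only the 4 col1 columns were used, with the 8 others left out.

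TPM was computed from counts and the table's lengths. Spread was estimated in R 4.3.3 with edgeR 4.0.16 (filterByExpr, TMM, dispersion with an intercept alone, log2 CPM with a prior count of 2), tested on simulated data first. Copies were sought by matching 100-base exon windows, every 25 bases, exactly to GRCm39, with minimap2 2.31-r1302, and overlaps from GENCODE exons. Promoters were RefSeq windows. Named were the 25 highest genes, defining members and the 6 highest of each of 44 lists, all expressed Hox, collagen and integrin genes, the 20 widest spreads (by class, with examples) and the 10 narrowest, the 5 highest lncRNAs, and partners of receptors, ligands and regulators. The lists and members were chosen with earlier results of these data known. Genes named for contrast, as absent members of a list, were chosen after their values were seen. A few genes of the lists are not reported here. Alternatives changed the threshold, denominator, length, filter, prior count, scaling and library set. Reads shared between genes may have been dropped or split, which bears on copied and overlapping genes.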

Additional observations from a re-analysis of the deposited data

Results flagged for a closer look

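Values were looked at again where 1 of the 4 libraries lay far from the other 3, judged by its gap to the nearest of them relative to the whole range. Chance alone marks about 1 in 20 such groups, and 31 of 395 named genes with any count were marked, as were 2 of 14 library measures and none of 46 list sums. That rate does not hold for genes with counts in 1 library and none in the others (Alpl, Bglap, Csf1r, Mx1, Plin1 and Rbfox3), which this measure always marks, so the share marked is not read against it. Both library measures were in replicate 2, with 18556 genes detected against 20931 to 21285 and with 0 counts in 5.31% of the genes that had a mean of 20 to 80 counts elsewhere, against 0.599 to 0.783%.

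Among genes, replicate 1 was high for Ogn at 1266 TPM against 1212 to 1219.6 TPM, Pgk1 at 397 TPM against 379 to 381 TPM, Lars2 at 248 TPM against 84.7 to 102 TPM, Rbfox3 at 0.0867 TPM against 0 in the others and Sox5 at 0.0702 TPM against 0 to 0.00830 TPM, and low for Spp1 at 542 TPM against 672 to 678 TPM, Cdk4 at 346 TPM against 361 to 363 TPM, S1pr2 at 40.0 TPM against 45.5 to 46.0 TPM and Hoxa4 at 7.09 TPM against 8.67 to 8.91 TPM. Replicate 2 was high for Lgals1 at 3387 TPM against 3172 to 3198 TPM, Serpinf1 at 521 TPM against 467 to 475 TPM and Loxl3 at 62.3 TPM against 51.4 to 53.1 TPM, and low for Hspa8 at 881 TPM against 907 to 908 TPM, Cald1 at 359 TPM against 377 to 378 TPM, Igf1r at 99.5 TPM against 112 to 113 TPM and Vwf at 0.0190 TPM against 0.264 to 0.312 TPM. Replicate 3 was high for Ddr1 at 196 TPM against 183 to 185 TPM, Yap1 at 63.4 TPM against 56.9 to 57.8 TPM, Alpl at 0.414 TPM against 0 in the others, Mx1 at 0.212 TPM against 0 in the others and Col14a1 at 0.170 TPM against 0 to 0.0288 TPM, and low for Csrp1 at 429.7 TPM against 453 to 458 TPM and Snai1 at 258 TPM against 287 to 292 TPM. Replicate 4 was high for Cavin2 at 1288 TPM against 1197 to 1212 TPM, Tgfbr2 at 287 TPM against 257 to 262 TPM, Tgif1 at 80.4 TPM against 76.5 to 77.0 TPM, Hoxa2 at 37.7 TPM against 31.7 to 32.4 TPM, Bglap at 2.94 TPM against 0 in the others, Mmp3 at 1.11 TPM against 0 to 0.132 TPM, Csf1r at 0.315 TPM against 0 in the others and Plin1 at 0.0783 TPM against 0 in the others.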

How the results depend on the processing

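Levels of single genes were judged by 1 SD between replicates. Counts of expressed list members and the set of the 25 highest genes were judged by 1.5 times. With canonical lengths 307 of these results moved and 180 did not. Over protein-coding genes alone 256 moved and 178 did not, and without mitochondrially encoded genes 248 moved and 193 did not. None of 446 moved with TMM scaling. Leaving out 1 of 4 libraries cannot move a mean by more than 1 SD, so its effect is given as a ratio. Of 445 named genes 86 moved by more than 1.5 times with canonical transcript lengths and 27, all with few counts, when 1 replicate was left out. The share of TPM in the 10 highest genes went from 10.2% to 6.54% without mitochondrially encoded genes, 9.18% with canonical lengths and 8.72% as a share of counts. That of the highest 100 went from 27.6% to 28.8% over protein-coding genes alone, 22.6% without mitochondrially encoded genes and 23.1% of counts. The matrix share of 7.07% became 7.73% over protein-coding genes, 7.67% without mitochondrially encoded genes and 11.6% of counts, and the collagen share of 2.61% became 2.86%, 2.83% and 5.16%. Mitochondrially encoded genes held 7.39% of TPM, 8.09% over protein-coding genes, 5.59% with canonical lengths and 2.51% of counts. At 5 TPM, 9 integrin subunits were expressed in place of 15, and 7 of 41 other list counts moved by more than 1.5 times: muscle (3 to 0), endothelial (2 to 0), leukocyte (2 to 1), epithelial (2 to 0), neural and glial markers (5 to 3), G protein-coupled receptors (17 to 10) and cell cycle genes (39 to 25). The common biological coefficient of variation of 0.138 was 0.371 with no filter beyond 1 count and 0.199 with a mean of at least 10 counts. The median SD of log2 CPM, 0.14, was 0.39 and 0.17 with those filters and 0.10 in genes with a mean of at least 10 TPM, and ranged from 0.120 to 0.138 when 1 replicate was left out. The median Pearson r, 0.986, was 0.968, 0.969 and 0.991 in the same order. The first component, with 46.8% of the variance, held 51.2 to 63.2% when 1 replicate was left out. Fewer libraries or other genes enter these values by construction. No paired analysis was possible because the results come from 1 group and from no test. Genes under 80 counts could be missing from 1 library, most often from replicate 2, which is not the library with the fewest counts.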

Other observations

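Complement and inflammatory genes were among the abundant ones without added ligand or inhibitor. Of 24 such genes 21 were expressed. C3, the central complement component, stood at 1894, 1975, 2085 and 2161 TPM and C1s1 at 99.1 ± 2.58 TPM. Lcn2, an iron-carrier protein of acute inflammation, stood at 92.6 ± 5.26 TPM, Ccl7 at 265 ± 26.1 TPM, and the NF-κB inhibitor Nfkbia at 216 ± 13.5 TPM. Il6 reached 1.62, 4.02, 2.90 and 3.22 TPM and was lowest in replicate 1, and Icam1 stood at 0.883 TPM beside 139.9 TPM for Vcam1. Of 30 interferon response genes 20 were expressed. B2m (2452 ± 71.1 TPM), Ifitm2 (865 ± 34 TPM), Ifitm3 (588 ± 33.8 TPM) and Ifi27 (402 ± 27.0 TPM) were above Isg15 (9.19, 2.31, 5.26 and 5.82 TPM), and stood at 1467 TPM, 432 TPM, 236 TPM and 185 TPM by canonical length, while Mx1 had 0, 0, 6 and 0 counts.

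All 20 amino acid response genes were expressed, led by the transcription factor Atf5 (645, 634, 583 and 592 TPM), the transporter subunit Slc3a2 (304, 307, 304 and 297 TPM) and the serine synthesis enzyme Phgdh (221 ± 13.9 TPM). Of 22 cholesterol synthesis genes 21 were expressed, from Insig1 (102 ± 5.17 TPM) and Sqle (65.3 ± 3.91 TPM) to Fdps (2.61 ± 0.769 TPM). Of 23 imprinted and X-linked dosage genes 12 were expressed. Igf2r stood at 429.6, 452, 469 and 492 TPM together with Airn (43.9, 31.0, 39.7 and 38.7 TPM), the antisense RNA of the same locus, whose level was 151 TPM by canonical length. Grb10 (179.9 ± 8.39 TPM) and Mest (46.2 ± 2.87 TPM) were expressed, H19 stood at 5.04, 9.21, 3.41 and 7.69 TPM, highest in replicate 2, and Snrpn and Zim1 had 0 counts.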
